A study of Homo sapiens with 6 samples.

Results

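The transcripts described here are 8014 annotated nonsense-mediated decay (NMD) transcripts that were detected in K562 cells, and they lie in 4280 protein-coding genes. They were chosen by their GENCODE transcript type, by a length of at least 500 bases and by their estimated read counts, with at least 10 reads required in at least 3 of the 6 libraries. The files list 21328 transcripts of this type, of which 20336 reach 500 bases. Of the longer ones, 5994 had no read in any library and 6328 had reads but stayed below the read requirement, while 128 of the 992 shorter transcripts met it and were left out for their length. At the edge of the rule, 1224 members reached 10 reads in exactly 3 libraries, with a median of 16.6 mean reads, and 1431 transcripts just outside reached it in exactly 2, with a median of 9.48. All libraries reached 10 reads for 4441 members. A further 1576 members reached it in all 3 Chelator libraries but not in all 3 DMSO libraries, below called passing only through Chelator. Of these, 266 reached it in no DMSO library. The reverse, passing only through DMSO, held for 612, of which 48 reached it in no Chelator library. Another 1385 reached it in other mixtures. The requirement favoured a higher value in the group through which a member passed. Counts over the 4441 deeply read members are therefore given beside the main counts over all members.

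RNA came from K562, an established human erythroid leukemia line that grows in suspension. The Chelator group was exposed overnight to the iron chelator 21H7 at 10 µM, and the DMSO group to an equal volume of the solvent, with 3 libraries each of polyA-selected RNA. The labels give both groups the same line and medium and name no knockdown or allele, and cell number, RNA per cell and RNA decay were not measured, so more synthesis and slower decay of a transcript cannot be told apart. The labels do not say whether the 3 libraries of a group came from separate cultures, so the p-values measure the spread between these libraries, which may be technical.

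NMD is a surveillance pathway that degrades mRNAs whose translation ends too early. When a ribosome stops well upstream of an exon-exon junction, the exon junction complex left there by splicing, together with UPF1 and its partners, marks the mRNA for decay. Annotators assign the NMD type from sequence alone, to transcripts whose coding sequence ends well before the last junction, so the type is a prediction and not a measurement of decay. Skipping or adding an exon is a common way to make such a transcript, and several families of splicing factors are known to limit their own expression through it.

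The libraries held 90.4, 84.2 and 78.6 M estimated counts in DMSO (M, 1000000 counts) and 96.4, 101 and 85.4 M in Chelator. Fragments were shorter in Chelator. For unread transcripts, the median difference between length and effective length, in bases, was 257, 264 and 252 for DMSO but 218, 207 and 200 for Chelator, so treatment and fragment length cannot be told apart. Shorter fragments raise the effective length, and so lower the TPM per read, mostly for short transcripts. The median ratio of effective length, Chelator over DMSO, was 1.10 for the 2172 members of 500 to under 1000 bases, 1.04 for the 1928 of 1000 to under 2000 bases and 1.01 for the 3914 longer ones. The K562 label was checked against erythroid genes, and GATA1 (151 to 178 TPM) and the fetal globin HBG2 (4879 to 7146 TPM) were high in every library. The T cell markers CD8A and CD2 and the B cell marker MS4A1 were at or near 0. CD3D stood at 10.0 to 16.2 TPM in DMSO and 38.9 to 40.7 in Chelator, and the keratin KRT19 at 77.5 to 86.7 and 187 to 204. The epithelial marker EPCAM stood at 62.3 to 68.8 TPM in DMSO and 45.6 to 50.3 in Chelator.

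These transcripts carry the NMD type because of where translation ends. The last 45 coding bases of 12 members named in the results, picked to show rises, falls and the genes of iron and splicing, and ending in the stop codon in capitals, are printed 5′ to 3′ from GENCODE release 44, with the stop codon's position on GRCh38.
TFRC-204, chr3:196072145-196072147, minus strand: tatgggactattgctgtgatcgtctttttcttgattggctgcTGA
RPF2-201, chr6:110989060-110989062, plus strand: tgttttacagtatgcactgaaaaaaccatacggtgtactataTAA
PCMT1-209, chr6:149772611-149772613, plus strand: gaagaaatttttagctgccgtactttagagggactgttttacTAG
SHQ1-206, chr3:72842354-72842356, minus strand: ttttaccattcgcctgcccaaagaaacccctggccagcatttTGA
RFC2-207, chr7:74246755-74246757, minus strand: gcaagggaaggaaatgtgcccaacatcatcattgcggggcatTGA
ABRAXAS1-202, chr4:83470387-83470389, minus strand: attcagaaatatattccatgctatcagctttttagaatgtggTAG
THOC3-206, chr5:175965105-175965107, minus strand: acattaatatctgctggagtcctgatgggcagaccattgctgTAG
FTH1-210, chr11:61965539-61965541, minus strand: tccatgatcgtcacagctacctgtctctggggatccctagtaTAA
RBM25-207, chr14:73088377-73088379, plus strand: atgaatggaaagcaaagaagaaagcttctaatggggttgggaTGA
SRSF2-208, chr17:76736161-76736163, minus strand: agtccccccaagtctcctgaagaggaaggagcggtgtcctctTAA
TIMMDC1-205, chr3:119513660-119513662, plus strand: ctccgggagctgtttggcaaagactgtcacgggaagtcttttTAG
HNRNPH1-238, chr5:179619308-179619310, minus strand: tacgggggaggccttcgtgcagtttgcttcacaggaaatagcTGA

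Several named members differ from their gene's most abundant coding transcript by the loss of a coding exon whose length is not a multiple of 3, which shifts the reading frame, and 6 are shown as examples. The skipped exons of 5 with a higher share in Chelator and of HDDC2-201, which moved the other way, are printed 5′ to 3′ from GRCh38, in lower case throughout. The exons hold 196, 65, 107, 67, 157 and 103 bases, and divided by 3 they leave a remainder of 1, 2, 2, 1, 1 and 1.
TFRC-204, chr3:196073930-196074125, minus strand: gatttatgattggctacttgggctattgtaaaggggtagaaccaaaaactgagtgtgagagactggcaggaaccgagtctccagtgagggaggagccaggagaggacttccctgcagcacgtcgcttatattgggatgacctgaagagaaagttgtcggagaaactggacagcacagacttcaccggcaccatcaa
SHQ1-206, chr3:72844359-72844423, minus strand: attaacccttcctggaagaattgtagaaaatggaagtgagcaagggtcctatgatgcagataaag
RFC2-207, chr7:74249012-74249118, minus strand: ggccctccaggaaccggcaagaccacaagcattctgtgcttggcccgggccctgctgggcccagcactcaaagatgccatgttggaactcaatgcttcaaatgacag
ABRAXAS1-202, chr4:83472222-83472288, minus strand: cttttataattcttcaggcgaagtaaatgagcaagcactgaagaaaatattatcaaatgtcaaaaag
THOC3-206, chr5:175967111-175967267, minus strand: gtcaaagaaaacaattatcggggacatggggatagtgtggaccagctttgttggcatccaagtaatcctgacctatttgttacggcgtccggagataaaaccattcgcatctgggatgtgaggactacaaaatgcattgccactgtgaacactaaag
HDDC2-201, chr6:125298714-125298816, minus strand: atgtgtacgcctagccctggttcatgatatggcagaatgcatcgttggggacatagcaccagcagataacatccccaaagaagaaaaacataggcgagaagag

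The members had a median length of 1949.5 bases (quartiles 940.0 and 3234.75), 9 exons and 363 coding bases. Of the 8008 with an annotated stop codon and a junction, 8003 had the stop at least 50 bases before the last junction, with a median distance of 486 bases. TGA was the stop codon in 58.6% of the 7994 members whose stop codon was read, TAA in 21.3% and TAG in the rest. Compared with the most abundant coding transcript of the gene, 2177 members (27.2%) ended in an exon shared with it after skipping at least 1 of its exons, and 2099 (26.2%) ended inside an added exon. In 1167 (14.6%) the stop lay in a shared exon after another difference, such as a moved splice site. Where exactly 1 exon was skipped, its length was not a multiple of 3 in 1443 of 1537 members (93.9%), with a median of 110.0 bases. Where the stop lay in a single added exon, that exon's length was not a multiple of 3 in 1071 of 1616 (66.3%). The type is assigned from the reading frame, so frame-shifting lengths follow from the annotation.

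These transcripts differ little in sequence from their coding neighbours, which limits how well reads can be assigned. The median member held 29 sequences of 31 bases found in no other annotated transcript, and 1847 members held none. Values of members without a sequence of their own rest on how salmon divided shared reads. Among the members named below this holds for RFC2-207, THOC3-206, VPS26A-205, HDDC2-201, SRSF2-208, RSRC2-204, CLK3-225, HNRNPDL-202, RPL13A-214, RPS9-208, KARS1-204, GARS1-214, LDHA-222, FTH1-210, HNRNPA2B1-203, H4C15-202, SCARF1-202 and ZNF232-202.

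The NMD members took a small part of the mRNA of their genes, and a larger part in Chelator. Of their host genes' TPM they held 7.03%, 6.98% and 7.25% under DMSO and 8.06%, 8.53% and 8.75% under Chelator. The means were 7.08% ± 0.142 and 8.45% ± 0.352 (SD, n = 3), a ratio of 1.19, and the groups did not overlap (exact two-sided permutation test, p = 0.1, the smallest p that 3 against 3 allows). Part of this rise was built in by the read requirement, through the 1576 members that met it only through Chelator and the 612 that met it only through DMSO. The 4441 deeply read members alone held 6.58%, 6.55% and 6.78% of the same TPM in DMSO and 7.43%, 7.77% and 7.92% in Chelator, means of 6.64% ± 0.125 and 7.71% ± 0.252 (SD, n = 3), again without overlap (exact permutation test, p = 0.1). The remaining members held 0.449%, 0.430% and 0.466% against 0.633%, 0.762% and 0.830%. Without the genes of the 10 members with the highest TPM, a choice made after seeing the data, the means were 6.37% ± 0.113 and 7.25% ± 0.280, and by estimated counts in place of TPM they were 6.54% ± 0.0953 and 7.83% ± 0.364.

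**Figure D1:**
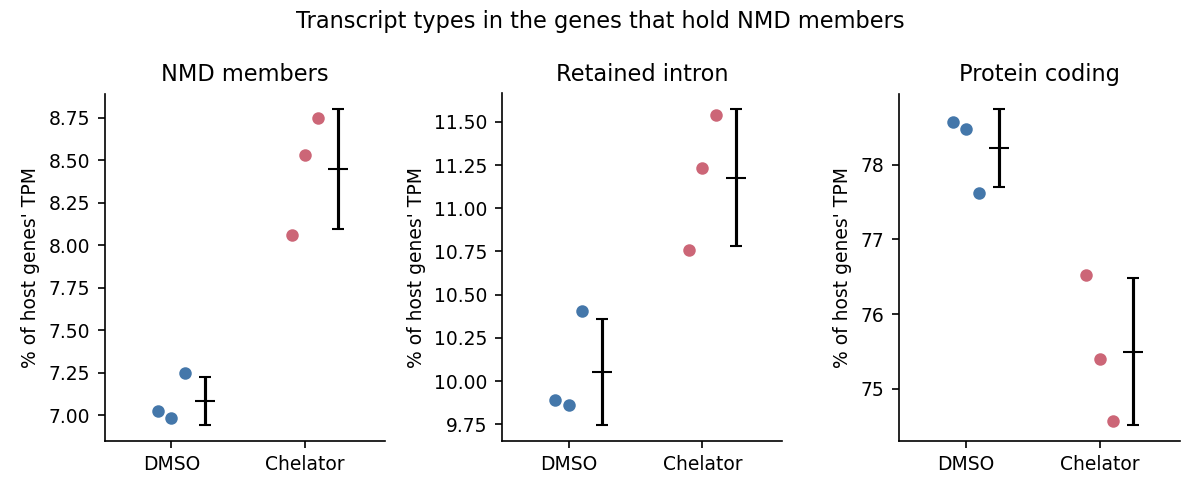
Share of the host genes' TPM (y axis, percent) taken by the 8014 NMD members, by retained intron transcripts and by protein-coding transcripts in each library of the DMSO and Chelator groups, with the mean and SD (bars, n = 3) beside the points; the y axes do not start at 0. NMD members rose from about 7.08% to 8.45%, retained intron transcripts from 10.1% to 11.2%, and protein-coding transcripts went from 78.2% to 75.5%.

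Retained intron transcripts of the same genes moved the same way. They took 9.89%, 9.86% and 10.4% of the TPM in DMSO and 10.8%, 11.2% and 11.5% in Chelator, while protein-coding transcripts took 78.6%, 78.5% and 77.6% against 76.5%, 75.4% and 74.6%. The ratio of NMD members to retained intron transcripts was 0.705 ± 0.00748 in DMSO and 0.756 ± 0.00537 in Chelator (SD, n = 3), again without overlap (exact permutation test, p = 0.1).

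The median member took 2.10%, 1.95% and 1.96% of its gene's TPM in DMSO and 2.41%, 2.76% and 2.63% in Chelator. Among the deeply read members the medians were 4.45%, 4.40% and 4.41% against 4.90%, 5.15% and 5.20%. In the 3223 host genes with a mean of at least 10 TPM, the summed share of a gene's members had a median of 4.46%, 4.44% and 4.43% in DMSO and 5.41%, 5.93% and 6.02% in Chelator. Counting the deeply read members alone, in 2475 such genes, it was 6.44%, 6.36% and 6.45% against 7.40%, 7.61% and 7.75%. In none of these medians did the groups overlap. Shares ranged widely between members: 2330 averaged under 1% of their gene, 1763 over 10% and 257 over 50%, and 67 are the only annotated transcript of their gene, which fixes the share at 100%.

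Member by member, shares that separated the groups were more often higher than lower in Chelator. Of 4359 deeply read members in genes with another tested transcript, 1033 (23.7%) had all 3 Chelator shares above all 3 DMSO shares, against a background of 17.6% of the 49072 transcripts of any type read as deeply. The reverse held for 466 members (10.7%), against a background of 17.5%. The median change of share was 0.297 percentage points among these members and 0.00682 points among all transcripts. Retained intron transcripts of at least 500 bases had nearly the same split, 23.9% higher and 11.5% lower (n = 9602), whereas protein-coding transcripts had 14.2% higher and 21.3% lower (n = 26880). By sequence of their own, 24.8% of the members without any such 31-base sequence were higher (n = 911) and 22.4% of those with 100 or more (n = 1389). By length it was 24.5% higher for 500 to under 1000 bases, 26.5% for 1000 to under 2000 and 21.8% for longer members. Among transcripts of any type read as deeply, the same length classes had 18.99%, 18.75% and 15.94% higher. The smaller value for long transcripts was therefore not particular to the members. In the same order, 11.11%, 10.48% and 10.58% of the members were lower, against 15.55%, 16.30% and 19.27% of transcripts of any type.

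Few single members passed the test of usage, and nearly all of those that did were higher in Chelator. With edgeR's diffSpliceDGE over 73452 transcripts, an adjusted p under 0.05 and a change of share of over 5 percentage points, 125 of 7858 tested members (1.59%) were called higher, against a background of 1.11% of all transcripts tested, and 9 (0.115%) were called lower, against 0.387%. The other 156 members had no second transcript to be tested against. Leaving out 1 library moved both directions, to 82 higher and 13 lower without Chelator replicate 2, 139 and 18 without Chelator replicate 1, and 108 and 5 without DMSO replicate 1. The count also depends on the tool and the filter: limma called 305 higher and 66 lower, and edgeR on transcripts with 10 counts in all 6 libraries called 203 of 4321 members higher and 32 lower. Among the 4359 deeply read members tested, 65 (1.49%) were called higher and 4 (0.0918%) lower, against 0.762% and 0.340% of the 49072 transcripts of any type read as deeply. Of the other calls, 58 higher were among those that passed only through Chelator and 5 lower among those that passed only through DMSO. In each, the read requirement favoured the direction of the call. By estimated counts, which are not scaled by length, all 134 called members moved in the same direction, but only 108 of them passed the same 5 points by counts. The median rise of the 125 was 8.42 percentage points of the gene's counts.

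**Figure D2:**
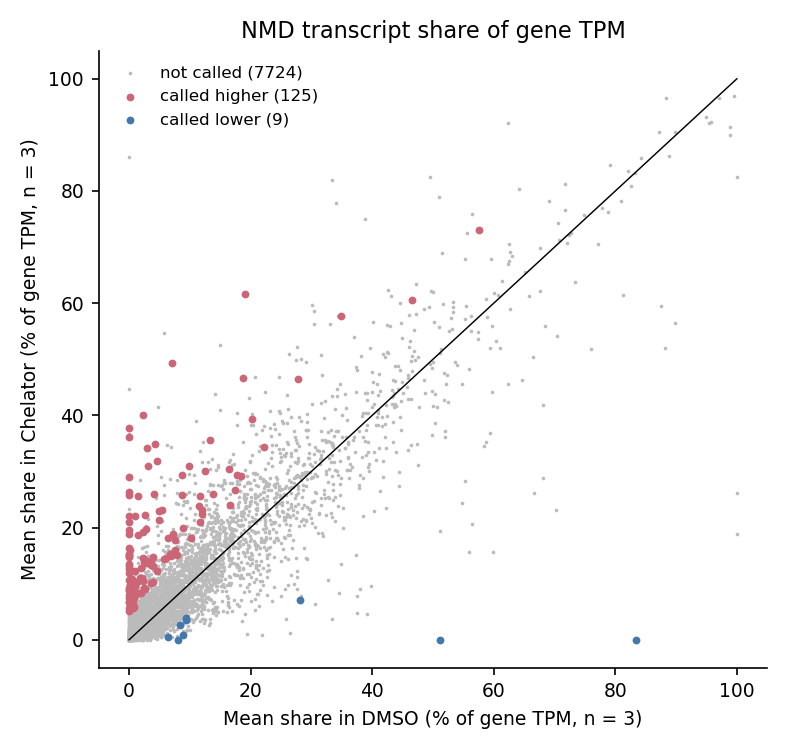
Mean share of gene TPM in Chelator (y axis, percent, n = 3) against DMSO (x axis, percent, n = 3) for the 7858 tested members, with the line of equal shares. The 125 members called higher lie above the line, the 9 called lower below it, and most of the others lie near 0 on both axes.

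The 125 members called higher fell in 123 genes and rose by a median of 11.0 percentage points. In 111 of them the transcript that gave up most share was protein coding, in 6 another NMD transcript, and in 4 each a retained intron transcript or one without a defined coding sequence. The expression of the whole gene was called higher for 12 of these members and lower for 2, and for 111 it was not called, with a median log2 fold change of -0.02 over the 125. Over all transcripts tested for share, the gene was called higher for 4.91% and lower for 1.26%. The abundance of the member itself was also called higher for 76. More of them ended after a skipped exon than members at large, 58 of 125 (46.4%) against 27.2%, and fewer inside an added exon, 27 (21.6%) against 26.2%, a description with no test. Among deeply read members the classes differed little, with 26.0% of 1125 exon-skipping members and 24.3% of 1146 added-exon members higher in Chelator without overlap.

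**Figure D3:**
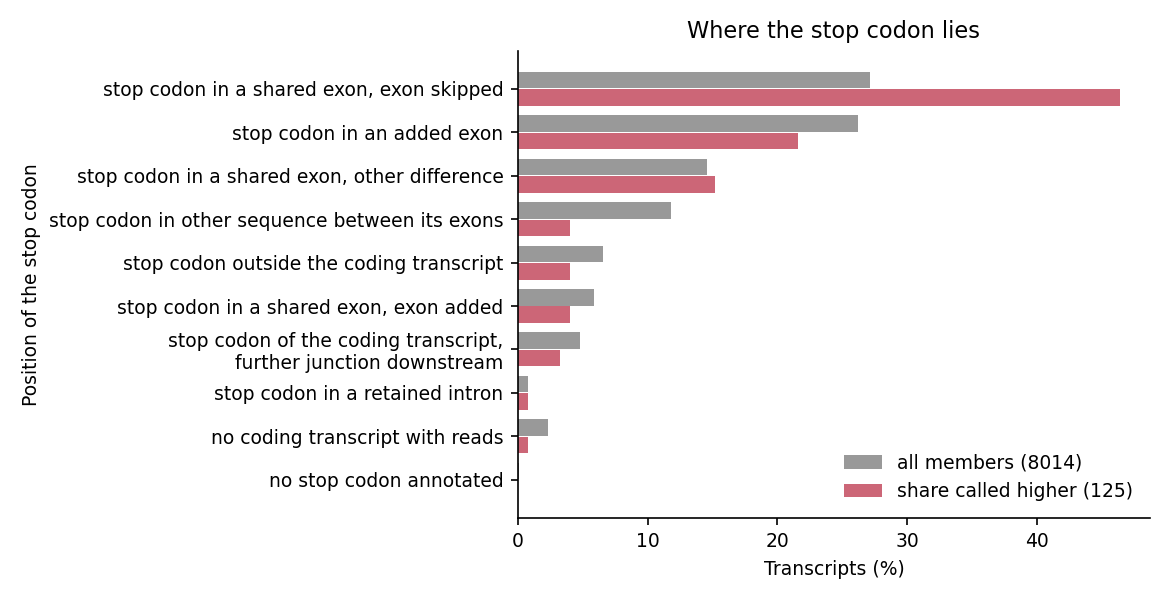
Percentage of transcripts (x axis) by where the stop codon lies relative to the gene's most abundant coding transcript (y axis), for all 8014 members and for the 125 called higher for share. Exon skipping accounts for 27.2% of members and 46.4% of those called higher, and added exons for 26.2% and 21.6%.

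By share of TPM, though not of counts, the largest rise among the members named by the rule below was in the transferrin receptor. This receptor brings transferrin-bound iron into the cell. TFRC-204, a 524-base transcript with 26 sequences of 31 bases of its own that skips the exon printed above, held 13.8%, 13.2% and 30.1% of TFRC's TPM in DMSO and 56.9%, 63.7% and 64.6% in Chelator, a rise of 42.7 points (adjusted p = 7.07e-15). DMSO replicate 3 stood above the other DMSO libraries, yet all Chelator libraries were above it. The long coding transcript TFRC-201 went from 53.1% ± 9.35 to 33.2% ± 3.89 (SD, n = 3). Because TFRC-204 is so short, its share of TPM is far larger than its share of reads: by estimated counts it held 1.10%, 1.01% and 3.03% of the gene in DMSO and 8.03%, 10.8% and 11.5% in Chelator. Its mean effective length was 256 bases in DMSO and 283 in Chelator, and a longer effective length gives a lower TPM per read. The gene as a whole also rose, by 2.89 ± 0.10 on the log2 scale (DESeq2, with its SE, adjusted p = 3.33e-172), and the reads of TFRC-204 were 646, 578 and 1517 against 23729, 31614 and 28692.

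Named by rule were the 8 largest rises among called members of genes with a mean of at least 10 TPM, without overlap between groups and with 100 mean reads in the higher group. Of the 7 besides TFRC-204, 4 were in genes of ribosome biogenesis, RNA export and transcription, a grouping made after their values were seen. RPF2 is needed to bring the 5S particle into the large ribosomal subunit, and RPF2-201 held 3.86%, 0.310% and 2.69% of its TPM in DMSO and 22.2%, 42.1% and 56.1% in Chelator (rise 37.9 points, adjusted p = 0.00022). By estimated counts its rise was 18.8 points, from 0.895% to 19.7%. The coding RPF2-202 went from 66.4% ± 0.498 to 37.4% ± 16.7 (SD, n = 3), and the gene's log2 fold change was -0.61 ± 0.08 (SE, DESeq2). SHQ1 helps assemble the particles that modify ribosomal RNA, and SHQ1-206 held 1.16%, 7.27% and 4.53% against 20.6%, 36.8% and 47.3% (rise 30.6 points, adjusted p = 0.0173), on only 4.10 to 195 reads a library, and by counts its rise was 7.51 points. THOC3 belongs to the THO complex of mRNA export, and THOC3-206 held 2.52%, 0% and 1.92% against 17.5%, 25.3% and 34.3% (rise 24.2 points, adjusted p = 0.001), with a rise of 9.95 points by counts. POLR2L is a small subunit shared by the nuclear RNA polymerases, and POLR2L-202 held 36.1%, 30.8% and 37.8% against 60.0%, 53.4% and 59.6% (rise 22.8 points, adjusted p = 0.045). In each of these 4 the groups did not overlap. THOC3-206 has no 31-base sequence of its own. SHQ1-206 was no longer called in 4 of the 6 fits without 1 library (adjusted p up to 0.129), and POLR2L-202 in all 6 (up to 0.249) and with an effective length offset (0.155). RPF2-201, SHQ1-206 and THOC3-206 met the read requirement only through Chelator.

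The other 3 were in genes of DNA maintenance and protein repair. ABRAXAS1 is a scaffold of the BRCA1-A complex, which acts at DNA breaks, and ABRAXAS1-202 held 4.01%, 4.37% and 5.34% of its TPM in DMSO and 27.0%, 34.7% and 34.1% in Chelator (rise 27.3 points, adjusted p = 0.00212). It is 2718 bases long, its mean effective length was 2006 bases in DMSO and 1955 in Chelator, and by counts its share was larger still, 6.02% against 43.1% on average. RFC2 is a subunit of the clamp loader of DNA replication, and RFC2-207 held 21.7%, 13.4% and 21.4% against 38.1%, 50.5% and 51.5% (rise 27.9 points, adjusted p = 1.21e-07), without a 31-base sequence of its own. PCMT1 repairs damaged aspartate residues in proteins, and PCMT1-209, which ends in an added exon of 130 bases, held 8.93%, 0% and 0% against 29.4%, 34.8% and 38.4% (rise 31.2 points, adjusted p = 0.0394), a rise of 13.6 points by counts. PCMT1-209 met the read requirement only through Chelator and lost its call in 5 of the 6 fits without 1 library (adjusted p up to 0.264). RFC2-207 and ABRAXAS1-202 kept theirs in all 6, and limma did not call PCMT1-209 (adjusted p = 0.32).

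**Figure D4:**
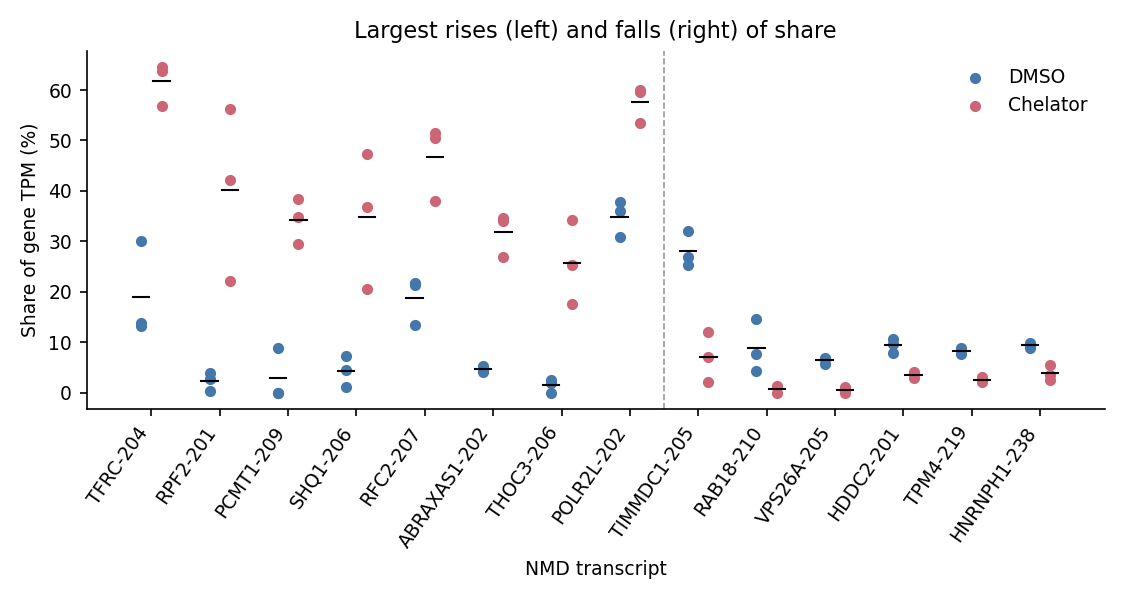
Share of gene TPM (y axis, percent) in each DMSO and Chelator library (points, with the mean of 3 as a line) for the 8 largest rises, left of the dashed line, and the 6 falls, right of it, among called members of genes with a mean of at least 10 TPM, without overlap and with 100 mean reads in the higher group. TFRC-204 rises from between 13.2% and 30.1% to between 56.9% and 64.6%, and TIMMDC1-205 falls from between 25.3% and 32.1% to between 2.16% and 12.0%.

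Falls were fewer, and 6 met the rule for naming. TIMMDC1 helps assemble respiratory complex I, and TIMMDC1-205 held 26.8%, 32.1% and 25.3% of its TPM in DMSO and 12.0%, 2.16% and 7.00% in Chelator (change -21.0 points, adjusted p = 0.0336). The transcript that gained most there, TIMMDC1-201, is itself an NMD transcript and went from 15.5% ± 0.640 to 28.2% ± 0.864 (SD, n = 3). HNRNPH1 is a splicing regulator that binds runs of G, and HNRNPH1-238 held 9.35%, 9.85% and 8.92% against 5.38%, 2.51% and 3.55% (change -5.56 points, adjusted p = 0.00392). HDDC2-201 held 9.65%, 10.6% and 7.89% against 3.67%, 4.09% and 2.85%. The tropomyosin transcript TPM4-219 held 8.84%, 7.61% and 8.47% against 3.16%, 2.44% and 2.08%, while its reads averaged 612 and 685 and the gene rose by a log2 fold change of 1.61. RAB18-210, of a small GTPase of lipid droplets, and VPS26A-205, of the retromer that recycles membrane proteins, fell to at most 1.25% and 1.02%. Both met the read requirement only through DMSO, which favoured a lower value in Chelator, and limma did not call them (adjusted p = 0.0665 and 0.195). Without 1 library, HNRNPH1-238 lost its call in 1 of 6 fits (without Chelator replicate 2, change -4.91 points, adjusted p = 0.156), HDDC2-201 in 3 (adjusted p up to 0.0802), TPM4-219 in 4 (up to 0.279), RAB18-210 in 5 (up to 0.26) and TIMMDC1-205 and VPS26A-205 in 5 each (up to 0.35 and 0.216). By estimated counts TIMMDC1-205 changed by -7.72 points, from 10.3% to 2.60%, while HNRNPH1-238 changed by -2.60 and VPS26A-205 by -1.42, less than a call needed. SCARF1-202 and ZNF232-202 were also called lower, were listed at 0 reads in all Chelator libraries and met the read requirement only through DMSO. ZNF232-202 fell outside the rule for naming and is given after its values were seen, with shares of 5.23%, 2.33% and 16.4% in DMSO.

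Turning from share to abundance, 418 of 8014 members (5.22%) were called higher by edgeR's quasi-likelihood test, against a background of 5.09% of 81479 transcripts, and 125 (1.56%) were called lower, against 2.48%. The count rests on single libraries: without Chelator replicate 2 it was 180 higher and 97 lower, and without Chelator replicate 3 it was 196 and 109, while DESeq2 on all 6 called 665 and 225. Among the 4441 deeply read, 250 (5.63%) were higher and 101 (2.27%) lower, against a background of 5.1% and 3.17% of the 54202 transcripts read as deeply. Of the 4280 host genes, 207 (4.84%) were called higher for expression, against a background of 7.81% of 25553 genes, and 58 (1.36%) lower, against 2.46%. The median log2 fold change was -0.05 over host genes and 0.02 over all genes tested.

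A few members were called in share together with their gene. Besides TFRC-204, TF-204 and TMEM154-206 were higher in genes that were also called higher. TF encodes transferrin, the iron carrier of plasma, and TF-204 was listed at 0 reads in all DMSO libraries and at 266, 262 and 249.6 in Chelator, where it held 27.5%, 32.1% and 27.4% of the gene's TPM but on average 8.30% of its estimated counts. Counting error alone allows up to 3 reads in a library listed at 0. TF-204 and TMEM154-206 met the read requirement only through Chelator. TMEM154-206 held 21.3%, 0% and 0% against 30.9%, 54.9% and 62.5%, on at most 3.13 reads in DMSO, and lost its call in 4 of 6 fits without 1 library (adjusted p up to 0.148) and with limma (0.0909). In the opposite direction, SCARF1-202 held 44.4%, 48.5% and 60.8% of a scavenger receptor gene in DMSO and was listed at 0 in Chelator, although the gene rose by a log2 fold change of 2.22 ± 0.21 (SE, DESeq2). SCARF1-202 has no 31-base sequence of its own, and the coding SCARF1-201 was listed at 0 in DMSO and held 46.1% ± 1.23 in Chelator. ZMPSTE24 trims the lamin A precursor, and ZMPSTE24-205 rose from 5.80%, 6.99% and 8.95% to 17.2%, 21.9% and 17.5% while the gene fell by a log2 fold change of 1.09 ± 0.08 (SE, DESeq2). Its call was lost in 5 of 6 fits without 1 library (adjusted p up to 0.152).

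The genes of the pathway itself held few members. Of 27 NMD factors and exon junction complex genes, 10 had 15 members, and none was called for share or abundance (edgeR, with the thresholds above). At an unadjusted p under 0.05, 0 of the 15 passed for share and 2 for abundance. limma called 0 for share, and DESeq2 called 1 lower for abundance. Of the 11 deeply read, 2 were higher and 1 lower without overlap, against backgrounds of 17.6% and 17.5% of all transcripts read as deeply. RUVBL2-207, of an ATPase that works with the UPF1 kinase, held 3.53%, 2.80% and 2.30% against 2.42%, 2.35% and 2.84%. As genes, 13 of the 27 were lower and 2 higher in Chelator at an adjusted p under 0.05 (DESeq2), against a background of 17.4% lower and 18.5% higher over all genes tested, none past a log2 fold change of 1, with a median of -0.18.

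The SR proteins and their relatives bind exons, promote their inclusion and are known for transcripts of this type. In 25 of 27 genes they held 45 members, of which 33 were deeply read. Of those 33, 20 were higher and 1 lower in Chelator without overlap, with a median change of 1.07 points. The backgrounds were 17.6% and 17.5% of all transcripts read as deeply, and 23.7% and 10.7% of all deeply read members. For share, 1 of the 45 was called, against a background of 1.11%. This was SRSF2-208, which held 2.69%, 3.23% and 2.01% of its TPM in DMSO and 11.9%, 14.1% and 16.5% in Chelator (rise 11.5 points, adjusted p = 0.00117). The log2 fold change of SRSF2 as a gene was -0.69 ± 0.08 (DESeq2, with its SE). SRSF2-208 keeps the coding stop codon and has a further junction downstream of it, and it has no 31-base sequence of its own. For abundance, 6 of the 45 were called higher and none lower, all 6 deeply read, against backgrounds of 5.1% and 3.17% of transcripts read as deeply. The kinases that phosphorylate SR proteins are among them, with CLK1-204 at 70.5, 91.8 and 26.0 reads in DMSO and 202, 417 and 279 in Chelator, and CLK3-225 at 28.9, 44.1 and 35.6 against 130.5, 182 and 243. CLK1 was also called higher as a gene, by a log2 fold change of 1.15, and the shares of CLK1-204 overlapped between groups (adjusted p = 0.982), while CLK3 changed by 0.44. RSRC2-204, another, held 9.12%, 12.9% and 15.9% against 19.1%, 19.1% and 20.4% of its gene, which did not pass the test of share (adjusted p = 0.245).

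The list of hnRNPs, which coat nascent RNA and often oppose SR proteins, and other splicing regulators had 77 members in 28 of 48 genes. Of 50 deeply read, 19 were higher and 7 lower without overlap, against backgrounds of 17.6% and 17.5%. For share, 1 of the 77 was called higher and 1 lower, against 1.11% and 0.387%. TARDBP, an RNA-binding protein that autoregulates through its own mRNA, was called: TARDBP-203 held 11.2%, 9.96% and 13.9% against 20.7%, 22.4% and 19.9% (rise 9.33 points, adjusted p = 0.0201), a call lost without DMSO replicate 1, DMSO replicate 2 or Chelator replicate 2 (adjusted p up to 0.128). HNRNPH1-238, described above, was called lower. HNRNPU-228 held 37.6%, 38.8% and 37.5% against 30.5%, 29.5% and 28.0%, groups that did not overlap, and did not pass the test of share (adjusted p = 0.549), while its abundance fell by 1.10 on the log2 scale (adjusted p = 0.00137). HNRNPDL-202 was listed at 0 reads in DMSO and at 475, 439.9 and 421 in Chelator, where it held 4.08%, 3.34% and 3.87% of its gene, a change under the 5 points a call needed (adjusted p = 1.49e-06). It met the read requirement only through Chelator and has no 31-base sequence of its own.

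The core spliceosome had 53 members in 32 of 76 genes. Of 34 deeply read, 13 were higher and 4 lower without overlap, against backgrounds of 17.6% and 17.5%. The 3 called for share were all higher, against a background of 1.11%, and 2 of them were deeply read. RBM25-207, of a factor tied to the U1 particle, held 6.02%, 5.23% and 4.99% against 20.4%, 33.1% and 15.7% (rise 17.6 points, adjusted p = 0.000425), and it ends in an added exon of 105 bases. PRPF4B-206, of a kinase that acts on the assembling spliceosome, held 4.64%, 5.68% and 7.87% against 11.5%, 15.8% and 16.6% (adjusted p = 0.0356), a rise of 4.67 points by estimated counts. CWC27-209 held 13.2%, 0% and 13.1% against 13.7%, 30.7% and 43.7% (adjusted p = 0.0292), so that Chelator replicate 1 lay close to the higher DMSO values. By counts the rise of CWC27-209 was 7.30 points against 20.5 by TPM, and between 13.4 and 28.4 by TPM without 1 library. It met the read requirement only through Chelator and lost its call with an effective length offset (adjusted p = 0.0625). Without 1 library the call of PRPF4B-206 was lost in 4 of 6 fits (adjusted p up to 0.227) and that of CWC27-209 in 3 (up to 0.574). RBM25-207 kept its call in all 6.

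Of the 69 genes in the ribosome assembly list, which does not hold RPF2 or SHQ1, 64 were lower and 2 higher at an adjusted p under 0.05 (DESeq2, background as above), with a median log2 fold change of -0.62. Their 40 members lay in 22 genes. Of 25 deeply read, 12 had a higher share without overlap and none a lower one, against backgrounds of 17.6% and 17.5%. However, no member was called for share (edgeR). At an unadjusted p under 0.05, 4 passed, and limma called 3 higher. POLR1B-202, of the second largest subunit of RNA polymerase I, held 8.67%, 11.5% and 8.75% of its TPM in DMSO and 11.4%, 13.5% and 14.3% in Chelator, groups that overlapped narrowly, while its abundance fell by 1.07 on the log2 scale along with a gene fold change of -1.45 ± 0.08 (SE, DESeq2).

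In cytosolic ribosomal proteins the members were a small part of very abundant mRNAs. None of the 42 members in 28 of 80 genes was called for share, against the background of 1.11%, and 7 were called higher for abundance (edgeR), against 5.09%, 5 of them deeply read. Of the 26 deeply read, 9 had a higher and 4 a lower share without overlap, against backgrounds of 17.6% and 17.5%. At an unadjusted p under 0.05, 11 passed for share, and limma called 0. RPL13A-214 held 0.467%, 0.404% and 0.432% against 1.04%, 1.35% and 1.43%, and its TPM went from 16.4, 14.8 and 16.4 to 43.2, 61.8 and 67.4. RPS9-208 held 0.123%, 0.172% and 0.112% against 0.346%, 0.416% and 0.390%. Both have no 31-base sequence of their own. RPS3-218, by contrast, was among the most abundant of all members at 659, 638 and 683 TPM against 1024, 1129 and 961, with shares of 24.2%, 23.6% and 25.4% against 30.0%, 30.4% and 25.7% that did not pass the test (adjusted p = 0.459).

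Among aminoacyl-tRNA synthetases, which load tRNAs with amino acids, 24 of 38 genes held 82 members. Of 42 deeply read, 12 were higher and 5 lower without overlap, against backgrounds of 17.6% and 17.5%. For share, 1 of the 82 was called higher and none lower, against 1.11% and 0.387%. KARS1-204, of the lysyl-tRNA synthetase, was called: 2.43%, 1.74% and 3.15% against 7.59%, 8.97% and 11.4% (rise 6.86 points, adjusted p = 2.16e-08), again without a 31-base sequence of its own. GARS1-214, of the glycyl enzyme, moved the other way, from 4.78%, 6.07% and 4.78% to 1.24%, 1.22% and 2.58%, less than the 5 points a call needed. Of the 33 members in ATF4 targets and genes of amino acid supply, 7 were called higher for abundance and none for share, against the backgrounds of 5.09% and 1.11% given above, beside 18 of 43 genes called higher as genes, against 7.81%. Of the 12 deeply read, 5 were called higher for abundance, against 5.1% of transcripts read as deeply. Of the same 12, 7 had a higher share and none a lower one without overlap, against 17.6% and 17.5%. At an unadjusted p under 0.05, 6 passed for share (edgeR), and limma called 1 higher. PHGDH-215, of the first enzyme of serine synthesis, was listed at 0 reads in DMSO and at 143, 318 and 650.0 in Chelator, through which alone it met the read requirement. PHGDH was also called higher as a gene, by a log2 fold change of 2.32. The glutamine transporter transcript SLC38A2-208 held 3.62%, 2.44% and 1.92% against 5.27%, 6.56% and 10.2%.

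The hypoxia-inducible genes, which many cells also raise when iron is short, held 39 members in 25 of 63 genes, with 5 called higher for share and none lower, against the backgrounds of 1.11% and 0.387%, and 2 of the 5 were deeply read. TFRC-204 and TF-204, described above, are among them. GPI is a glycolytic enzyme, and GPI-221 held 8.91%, 6.36% and 7.46% against 16.5%, 18.7% and 18.1% (rise 10.2 points, adjusted p = 6.01e-07), with 133 sequences of 31 bases of its own. SLC2A3-211, of a glucose transporter, held 0.0876%, 0% and 0.306% against 0.918%, 18.4% and 28.5% (adjusted p = 1.24e-06), so Chelator replicate 1 lay close to DMSO. By counts its mean share was 2.50% in Chelator, a rise of 2.49 points, and limma did not call it (adjusted p = 0.605). LDHA-222, of lactate dehydrogenase, is the fifth, given after its values were seen, at 0%, 0% and 0.103% against 1.30%, 5.92% and 8.33%. SLC2A3-211 and LDHA-222 met the read requirement only through Chelator. Over the 21 deeply read members of the list, 6 were higher and 5 lower without overlap, against backgrounds of 17.6% and 17.5%.

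The genes of iron handling and the PCBPs held 45 members in 20 of 45 genes, and 4 were called higher for share, TFRC-204 and TF-204 again among them, against the background of 1.11%, with 3 of the 4 deeply read. In ferritin heavy chain, which stores iron, FTH1-210 held 0.282%, 0.285% and 0.182% of the gene's TPM in DMSO and 4.34%, 9.24% and 13.3% in Chelator (rise 8.71 points, adjusted p = 5.24e-10). Its reads were 509, 419 and 264 against 10327, 22985 and 27659.5. For FTH1 as a gene the log2 fold change was 0.22 ± 0.08 (DESeq2, with its SE), and a coding transcript of 825 bases went from 18.5% ± 2.62 to 3.89% ± 5.33 (SD, n = 3). FTH1-210 has no 31-base sequence of its own and ends in sequence between the exons of the main coding transcript. IREB2-203, of the iron regulatory protein IRP2, was given after its values were seen and held 1.87%, 3.38% and 0.798% against 7.24%, 10.4% and 7.44%. TF-202, of the same gene as TF-204, held 23.8%, 23.7% and 18.5% on at most 7.46 reads in DMSO and 12.5%, 10.4% and 15.4% in Chelator, through which alone it met the read requirement. Of the 29 deeply read members, 6 were higher and 4 lower without overlap, against backgrounds of 17.6% and 17.5%.

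RNA decay enzymes and the exosome, which act after NMD and in other decay, had 47 members in 22 of 45 genes. Of 25 deeply read, 11 were higher and 1 lower without overlap, against backgrounds of 17.6% and 17.5%. For share, 2 of the 47 were called higher and none lower, against 1.11% and 0.387%. MTREX, the helicase that feeds RNA to the nuclear exosome, had MTREX-207 at 9.37%, 6.32% and 7.76% against 13.1%, 18.6% and 13.8% (rise 7.33 points, adjusted p = 0.000222), a rise of 13.3 points by counts. CNOT1 is the scaffold of the CCR4-NOT deadenylase, and CNOT1-207 held 0.830%, 0% and 0% against 7.22%, 7.71% and 9.14% (adjusted p = 0.000488), although by counts its mean share in Chelator was 1.13%, a rise of 1.10 points. It met the read requirement only through Chelator, where a higher value was built in, and limma did not call it (adjusted p = 0.275). The call of MTREX-207 held in all 6 edgeR fits without 1 library. So did that of CNOT1-207, but those fits kept the same read requirement and cannot remove its effect. The respiratory chain had 50 members in 32 of 76 genes, none called for share by edgeR or limma and 1 at an unadjusted p under 0.05 (edgeR). Of its 27 deeply read members, 6 were higher and 6 lower without overlap, against the same backgrounds of 17.6% and 17.5%.

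**Figure D5:**
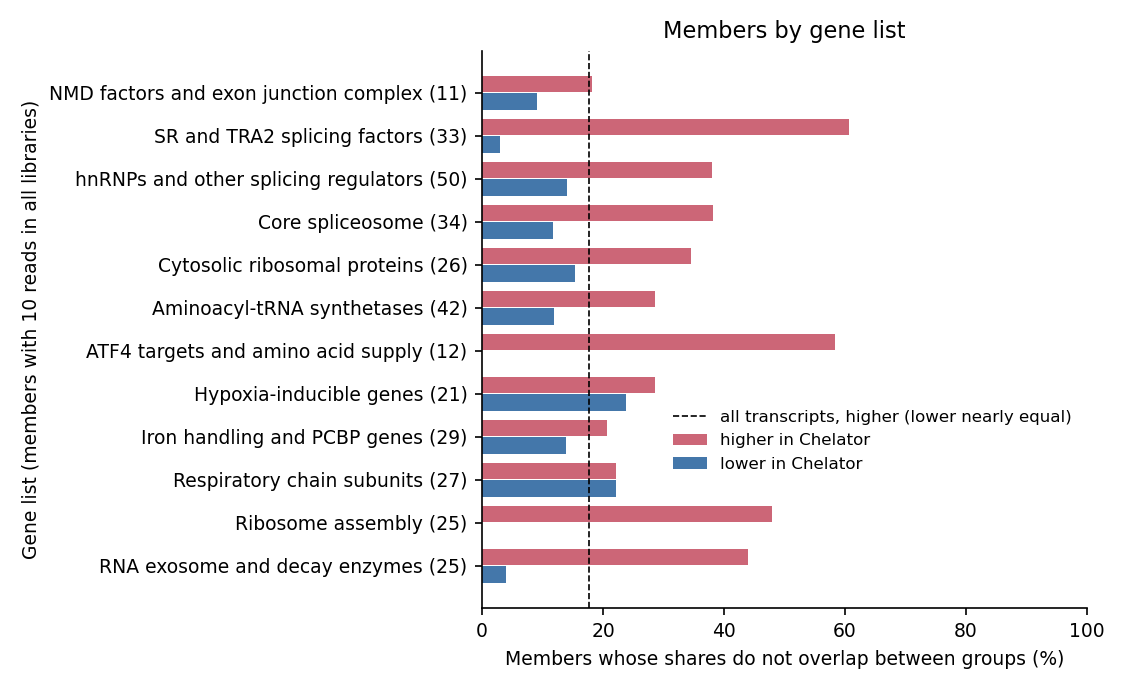
Percentage of a gene list's deeply read members (x axis) whose shares did not overlap between groups, higher or lower in Chelator, for 12 lists (y axis, with the number of such members); the dashed line marks the 17.6% of all transcripts that were higher, close to the 17.5% that were lower. SR and TRA2 splicing factors stand at 20 of 33 higher and ribosome assembly at 12 of 25, while the respiratory chain has 6 of 27 in each direction.

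The most abundant members differed among themselves. HNRNPA1-205, of a major hnRNP, was the highest at 771, 811 and 806 TPM in DMSO and 1077, 1070.3 and 1078 in Chelator, with shares of 28.8%, 27.7% and 31.2% against 39.7%, 40.5% and 40.4%. The groups did not overlap, yet the test of usage did not pass (adjusted p = 0.793). It keeps the coding stop codon, with 2 junctions downstream, and the short coding HNRNPA1-206 went from 16.0% ± 3.72 to 0.234% ± 0.248 (SD, n = 3). HNRNPA2B1-203 held 38.3%, 39.6% and 37.1% against 39.6%, 39.7% and 40.5%. ENO1-214, of the glycolytic enzyme enolase, held 9.47%, 9.89% and 10.9% against 8.02%, 9.83% and 11.9%, groups that overlapped. The 5 highest mean shares belonged to members that are the only or nearly the only transcript of their gene record, such as the read-through HNRNPUL2-BSCL2-201 at 100% in every library and H4C15-202, so their shares carry no comparison.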

How the data were processed

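PolyA-selected RNA of K562 cells was sequenced as paired reads in 3 Chelator and 3 DMSO libraries. The deposited files hold salmon output per transcript, with estimated counts that need not be whole and TPM values that the authors' run of salmon scaled by effective length. The submitters' processing notes name Salmon 1.10.2, STAR 2.7.11b and build hg38. Transcripts were matched to GENCODE release 44. Share was a transcript's percentage of its gene's TPM. Estimated counts were rounded and tested for usage with edgeR 4.0.16 (diffSpliceDGE), for abundance with its quasi-likelihood test, and for gene expression with DESeq2 1.42.0 (Wald test, transcript length offset). Calls needed a Benjamini-Hochberg adjusted p under 0.05 over all features, with a share change over 5 percentage points or a log2 fold change past 1. Transcripts with 10 counts in 3 libraries entered the fits.

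On simulated data for the usage test (73452 transcripts), calls recovered 21.5% of the 2-fold changes (n = 79) and 74.1% of the 4-fold changes (n = 81). The changed transcripts had over 100 mean counts, and their true share of the gene's counts moved by over 5 points. The same spread was assumed for every transcript. Changes in transcripts with fewer counts were not simulated, so these values do not cover them. Transcripts were named by fixed rules: the 8 largest rises and up to 8 falls called for share in genes of at least 10 TPM with groups that did not overlap and 100 mean reads, up to 4 called members per gene list, the 5 highest in TPM and in share, and 3 each whose gene was called in the same or the opposite direction. Members and lists were chosen with earlier results of these data known. Leaving out each library, other filters, scalings, tools and thresholds were tried as alternatives. Counts of 0 and the precision of each value cover counting error only. Results for some transcripts that the rules would name are not reported here.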

Additional observations from a re-analysis of the deposited data

How the results depend on the processing

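The 134 members called for share became 371 (305 higher, 66 lower) with limma diffSplice, 235 (203 higher, 32 lower) when 10 counts were required in all 6 libraries, 85 at 1000 bases or more, 74 with a threshold of 10 percentage points and 278 with none. Fewer members enter at 1000 bases and the last 2 change the threshold itself, and for the others the cause was not tested. By estimated counts 122 were called, 108 of them shared. Calls for share numbered between 95 and 157 when 1 library was left out. The 543 members called for abundance became 890 (665 higher, 225 lower) with DESeq2, and ranged from 277 (without Chelator replicate 2) and 305 (without Chelator replicate 3) to 494 when 1 library was left out. Replicate numbers did not pair the libraries (correlations of deviations between -0.030 and 0.024). With the replicate block, 107 members were called for share (102 higher, 5 lower) and 120 for abundance (85 higher, 35 lower), while host genes gave 276 against 265. Host genes called were between 243 and 291 when 1 library was left out, and the median share rose by 0.597 points (0.518 to 0.692 without 1 library). With an effective length offset, added after seeing the data, 130 were called for share (126 shared with the 134), with POLR2L-202 and CWC27-209, both of 585 bases, no longer called, and 100 among members with a 31-base sequence of their own. The 29 named share changes gave 542 values under other settings, of which 100 were no longer called. Settings that refit no model or change only the threshold or the members keep a direction by construction, so the direction is not read as stability. Without the filter on counts, POLR2L-202, TIMMDC1-205, RAB18-210, VPS26A-205, HDDC2-201, TPM4-219, HNRNPH1-238, TARDBP-203, CWC27-209, PRPF4B-206 and TMEM154-206 lost the call (adjusted p up to 0.203).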
